A study of Mus musculus with 12 samples.

Results

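Livers of BALB/c mice lacking interleukin-18 were compared with wild type livers at 6 weeks of age, on 6 of the 12 arrays of the series. The arrays were chosen by genotype and age as labelled: 3 arrays of Il18 knockout livers and 3 of wild type livers, each array labelled as a biological replicate, from untreated animals. The other 6 arrays held the same genotypes at 12 weeks, 3 each, and entered the fit only to share 1 estimate of the spread and to test whether a 6-week difference differed from that at 12 weeks. Total RNA of whole liver was labelled with cyanine 3 and hybridised to 1-colour Agilent arrays. The knockout is given as a genotype, with no detail of the deleted part or of backcrossing. Sex and the hour of collection are not given in the sources used here. In whole liver, fewer cells of a type and less RNA per cell cannot be told apart. Each slide carried only 1 genotype of this age: the 3 wild type arrays lay on slide 1 and the 3 knockout arrays on slide 2, so that genotype and slide cannot be told apart at 6 weeks and no value within a slide could be had. The 1 array that bears on the slide is replicate 1 of the 12-week wild type, which lay on slide 1, and its level is given beside the main results.

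Interleukin-18 is made as an inactive precursor, cut by caspase-1 in inflammasomes, and bound by a receptor on lymphocytes that signals through MyD88 and IRAK kinases to raise interferon-gamma. The liver is also an organ with strong rhythms and strong sex differences. In the hepatocyte clock, BMAL1 (from Arntl) and CLOCK bind E-boxes. They switch on the Per, Cry and Nr1d genes and output regulators such as Dbp. The products of the Nr1d genes in turn hold down Arntl, Npas2 and Nfil3. Sex differences in rodent liver follow the pattern of growth hormone secretion, pulsed in males and more continuous in females, which acts through STAT5b and sets cytochrome P450, sulfotransferase and transporter genes apart between the sexes.

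Levels are log2 of the background-corrected signal relative to the 75th percentile of that array, a scale on which 1 unit is a 2-fold difference. A level compares arrays for 1 probe and does not rank genes against each other. Differences are knockout minus wild type with the standard error of the fit, and passing means limma's Benjamini-Hochberg adjusted p under 0.05 over 22125 genes. The 75th percentile ran from 411 to 420 in scanner units on the 6-week wild type arrays and from 349 to 382 on the knockout arrays. Surrogate values, which the scanner software writes for spots too dim to measure, stood for 25.4% to 30.9% of wild type spots and 19.3% to 23.4% of knockout spots. Correlations across genes (genes are no independent replicates) ran within a genotype from 0.992 to 0.995 and between the genotypes from 0.981 to 0.984. In all, 4663 genes passed (21.1% of those tested), 2592 higher (11.7%) and 2071 lower (9.36%) in the knockout, and 491 rises and 459 falls reached 2-fold. Scaling to the 75th percentile of probes detected on all arrays turned this split to 2076 higher and 2638 lower. Leaving out single 6-week arrays gave 2549 genes (without wild type replicate 2) to 3084 (without knockout replicate 3). A fixed slide block, which depends on the 12-week wild type array of slide 1 alone, left 588 genes passing, and a random slide block left 1228. The median difference over all genes was 0.017. Each list below is set against these shares, and its median against that value.

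**Figure D1:**
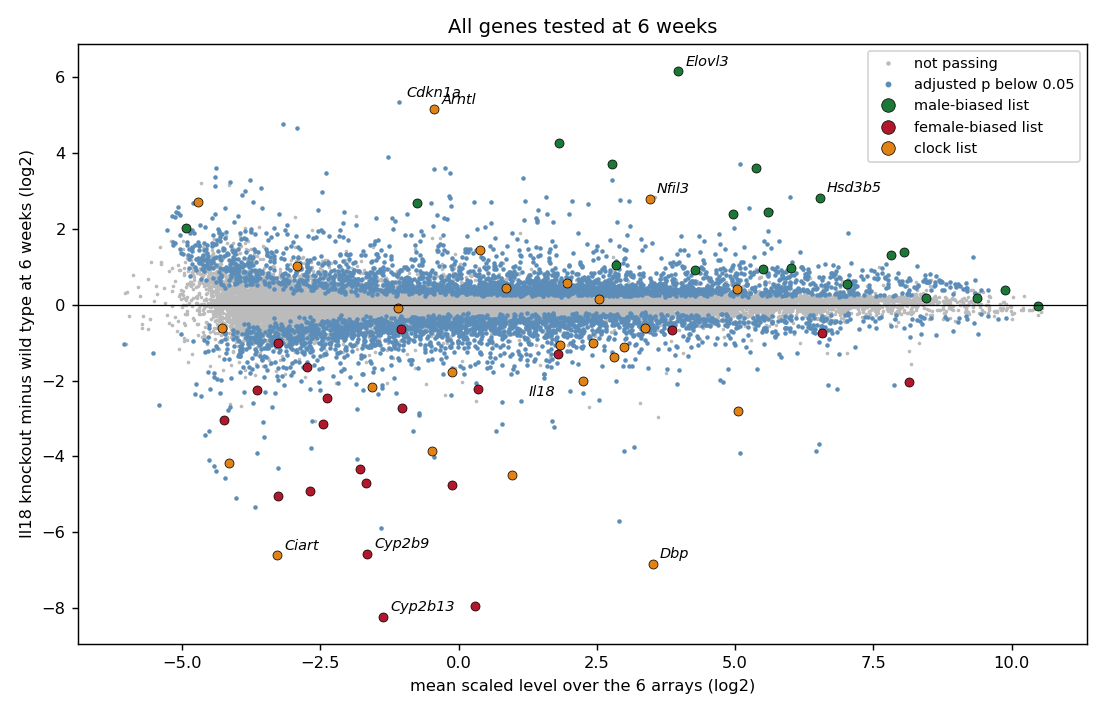
Each point is 1 of 22125 genes, with its mean scaled level over the 6 arrays of 6 weeks (log2) on the horizontal axis and the knockout minus wild type difference (log2) on the vertical axis. Blue points passed the adjusted p of 0.05, and circles mark members of the male-biased, female-biased and clock lists. Female-biased genes lie below 0, down to Cyp2b13 at a fitted -8.22, most male-biased genes above it, up to Elovl3 at 6.16, and clock genes lie on both sides.

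Il18 itself was lower on every knockout array. The probe is a 60-base stretch of the transcript at chr9:50389761-50389820 (mm9, plus strand), shown because it decides what the measurement can see. It ends with TAG, in capitals, which is the stop codon of the reading frame, followed by 1 more base.
Il18 probe: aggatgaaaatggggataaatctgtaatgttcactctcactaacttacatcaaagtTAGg
The level was 2.44, 2.41 and 2.35 on the wild type arrays and -0.02, -0.04 and -0.37 on the knockout arrays. The groups did not overlap, and the 12-week arrays stood at like heights by genotype, with replicate 1 of the 12-week wild type, on slide 1, at 2.25. Il18 fell 5.81-fold (-2.54 ± 0.11, SE, n = 3 per group, limma adjusted p = 2.47e-06), and by an exact permutation test of 3 against 3 arrays the two-sided p was 0.1, the smallest this design allows. The probe was well above background on all knockout arrays, and whether the deletion covers it is not stated in the labels.

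The list of the interleukin-18 pathway and the inflammasome held 23 genes, of which 17 were bright enough to test, and 2 were higher and 2 lower in the knockout, a share of 23.5% with a median of -0.11. Besides Il18, the passing genes were Irak1, the kinase next to the receptor, at 0.49 ± 0.07 (adjusted p = 0.00147), Il12rb1, a subunit of the interleukin-12 receptor, at -0.57 ± 0.13 (adjusted p = 0.0129), and Ifng. Irak1 stood at 2.15, 2.18 and 2.12 on wild type arrays and at 2.71, 2.63 and 2.57 on knockout arrays, and its other 2 tested probes passed at 0.36 and 0.27. The second probe of Il12rb1 lay at -0.10 and did not pass. Ifng, the cytokine that interleukin-18 is known for inducing, was not well above background on any wild type array and was at least 1.10-fold higher in the knockout (adjusted p = 0.0358), a call lost in 5 of the 6 fits that left out 1 array. Il18bp, which encodes the soluble decoy receptor and is itself known to be induced by interferon-gamma, differed by 0.30 ± 0.17 and did not pass (adjusted p = 0.223). The receptor genes Il18r1 and Il18rap were too dim to test. With the slide as a fixed block, Il18 at -2.61 still passed (adjusted p = 0.00108) and Irak1 at 0.36 and Il12rb1 at -0.53 did not (adjusted p = 0.115 and 0.275).

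**Figure D2:**
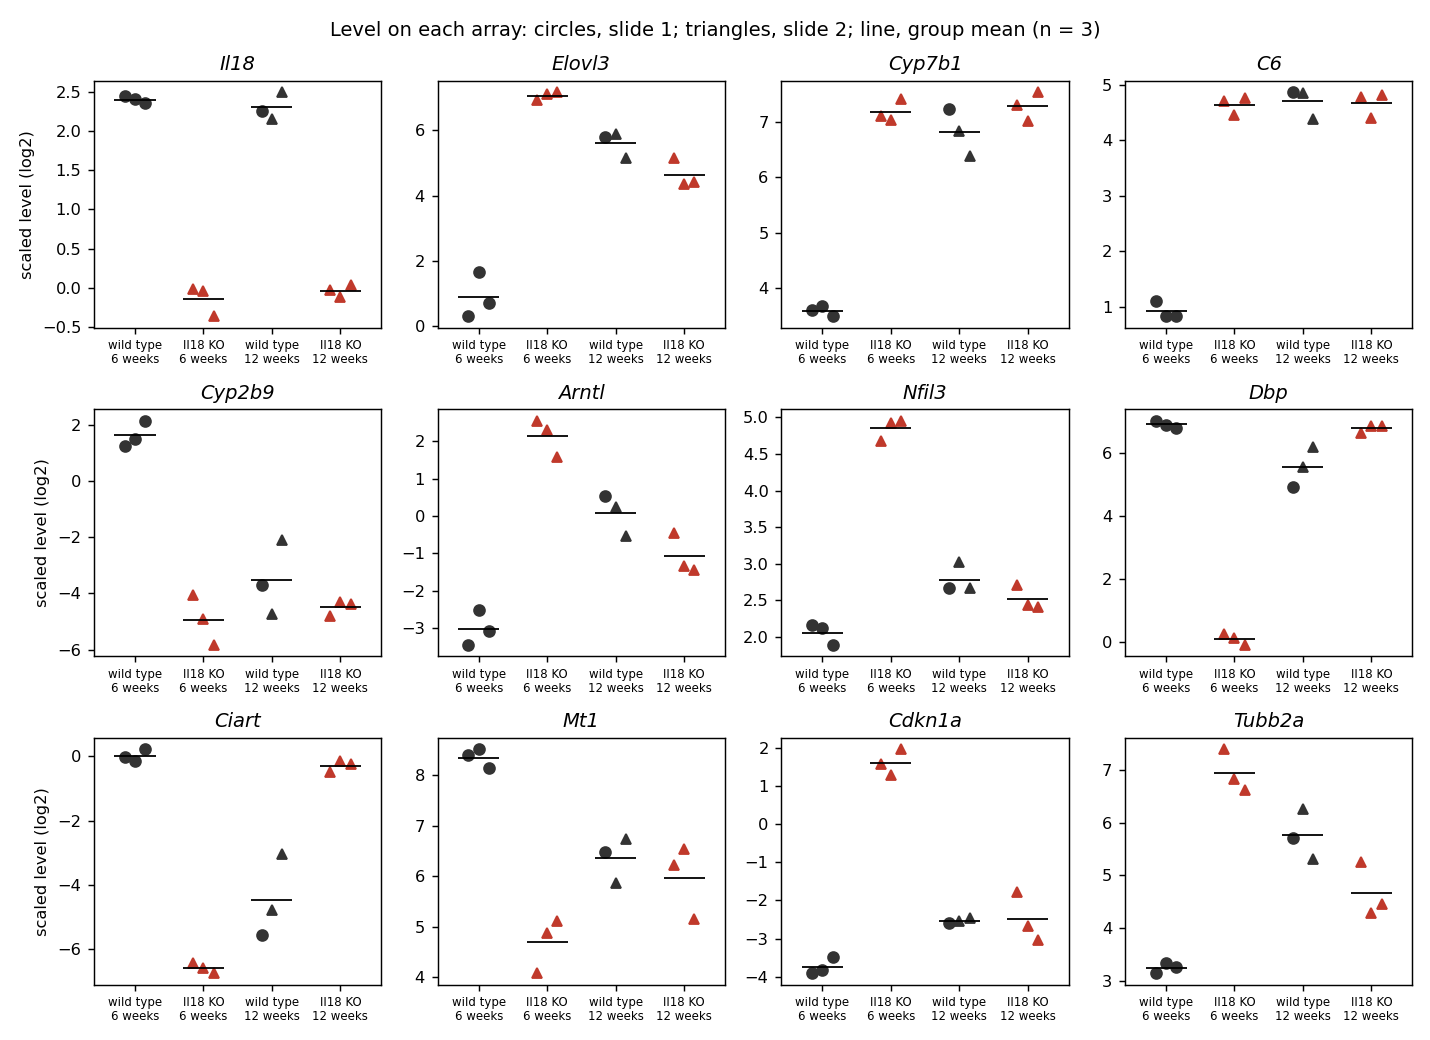
Scaled log2 level of 12 genes on every array, by group, with circles for slide 1, triangles for slide 2 and a line at the mean of 3 arrays. For each gene the 6-week wild type and knockout arrays do not overlap. The 12-week wild type array on slide 1 (circle) lies near the 12-week arrays of slide 2 for Elovl3, Cyp7b1, C6 and Cyp2b9.

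The male-biased liver genes were the list with the highest median at 6 weeks. Of 22 genes listed, 20 had a probe and were tested, and 15 were higher in the knockout, 0 lower and 5 did not pass, with a median of 1.35. The groups did not overlap for 17 of the 20, against 47.9% of all genes. Elovl3, an elongase for very long fatty acids, stood at 0.30, 1.67 and 0.72 on wild type arrays and at 6.91, 7.10 and 7.16 on knockout arrays. It was thus low on all 3 wild type arrays, with no overlap, and rose 71.4-fold. Cyp7b1, which hydroxylates oxysterols and steroids, stood at 3.59, 3.68 and 3.49 against 7.11, 7.03 and 7.41, again without overlap (3.60 ± 0.21, adjusted p = 9.98e-06). C6, a gene of the terminal complement complex, stood at 1.11, 0.83 and 0.83 against 4.70, 4.46 and 4.75 (3.71 ± 0.16, adjusted p = 2.12e-06). Hsd3b5, a male-specific 3-ketosteroid reductase, stood at 5.18, 5.31 and 4.87 against 7.81, 8.03 and 7.99, and the lowest knockout array exceeded the highest wild type array. It rose by 2.83 ± 0.22 (adjusted p = 6.43e-05).

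The other passing male-biased genes spanned a wide range. The acetyltransferase gene Nat8f5 rose by 4.26, the proteoglycan gene Cspg5 by 2.68 and the arachidonic acid hydroxylase gene Cyp4a12a by 2.40. The glutathione transferase gene Gstp1 rose by 1.39, the major urinary protein gene Mup21 by 1.31, the organic anion transporter gene Slco1a1 by 0.93 and the glucuronosyltransferase gene Ugt2b1 by 0.94. Egfr, Cyp2d9 and Mup20 also rose, Egfr at 0.97, Cyp2d9 at 0.53 and Mup20 at 0.39, of which Egfr and Mup20 were lost in 5 and 4 of the 6 fits without 1 array, and a second probe of Mup20 gave 0.11. Mup1, another major urinary protein gene and near the top of the signal range, differed by -0.04 and did not pass. Members of the Mup, Cyp4a and Gstp families are near-identical copies, and a probe can take up signal from several of them. Under the fixed slide block 11 of the 20 genes were higher, with a median of 1.48, and with a random block 13.

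The female-biased genes moved the other way. Of 26 genes listed, 21 were bright enough to test, and 18 were lower in the knockout, 0 higher and 3 did not pass, with a median of -2.73, the lowest of all lists. Cyp2b13, a female-specific cytochrome P450, stood at 2.08, 2.33 and 3.84 on wild type arrays and at -4.76, -4.91 and -6.75 on knockout arrays, none of which was well above background. It was at least 158-fold lower (adjusted p = 8.19e-05). Its neighbour Cyp2b9 stood at 1.25, 1.49 and 2.14 against -4.07, -4.92 and -5.84 and was at least 66-fold lower (adjusted p = 0.000163), likewise with 0 knockout arrays above background.

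Among the other female-biased genes, Hao2, a peroxisomal oxidase, was at least 14-fold lower, Sult3a1, a sulfotransferase, at least 3.57-fold and Cyp3a44 at least 4.10-fold. The adjacent organic anion transporter genes Slc22a26, Slc22a27 and Slc22a29 fell by 4.33, 4.71 and 4.92 on the log2 scale, and the acyl-CoA thioesterase gene Acot3 fell by 4.75. The peroxisomal transporter gene Abcd2 fell by 3.13, Tox by 2.73, the steroid hydroxylase gene Cyp2a4 by 2.04, the nuclear receptor co-regulator gene Trim24 by 1.30 and Cyp3a16 by 0.73. Cux2, a female-specific repressor, at -0.999, Prom1 at -0.63 and Nipal1 at -1.63 did not pass. Cux2 was high on 1 wild type array only, at -1.23, -3.77 and -3.27 over the 3. In the fit with a fixed slide block 8 of the 21 genes were lower, with a median of -3.31, and with a random block 15; Cyp3a16 was lost in all 6 fits without 1 array. The Cyp2b, Slc22a and Cyp3a genes lie in clusters of similar copies.

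On which side of the comparison the sex-biased genes stood apart can be read from the 12-week arrays. The mean level of the 20 male-biased genes ran from 4.16 to 4.41 on the 6-week wild type arrays and from 6.15 to 6.30 on the 6-week knockout arrays, against 5.73 to 6.42 and 5.89 to 6.18 in the 12-week wild type and knockout. For the 21 female-biased genes it ran from 0.64 to 1.41 on the 6-week wild type arrays, against -2.54 to -1.97, -2.23 to -1.11 and -2.06 to -1.74 in the other 3 groups. The 6-week wild type was thus the group that stood apart in both lists. Replicate 1 of the 12-week wild type, which shared slide 1 with it, stood at 6.20 and -2.17, inside the range of the arrays on slide 2. Of the 15 male-biased genes that passed at 6 weeks, 14 had that array nearer to the 6-week knockout mean than to the 6-week wild type mean, as had 15 of the 18 female-biased genes. For the mean of the 12-week wild type arrays of slide 2 these counts were 13 and 15. The genes counted were picked by their difference between the 6-week groups, so that the counts are no test of the slide. Over all genes, the 6-week wild type arrays lay outside the range of the other 9 for 11.1% and the 6-week knockout arrays for 6.91%.

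Transcripts of the Y chromosome were measured in both groups. Ddx3y stood at 2.19, 2.07 and 2.33 on wild type arrays and at 2.19, 2.50 and 2.51 on knockout arrays, and Eif2s3y at 3.37, 3.29 and 3.37 against 2.40, 2.65 and 3.47. Both were well above background on all 6 arrays, as was Uty, and none of the 3 passed, at 0.20, -0.50 and -0.62 (adjusted p = 0.234, 0.130 and 0.0758). Kdm5d, also of the Y chromosome, was not well above background on any of the 12 arrays, nor was Xist, with 2 probes.

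Of 18 genes of the growth hormone axis, which sets the sex pattern of the liver, 2 were higher and 0 lower, a share of 11.1% with a median of 0.08. They were the receptor gene Ghr at 0.42 ± 0.07 (adjusted p = 0.00324) and the signal transducer gene Stat5b at 0.45 ± 0.11 (adjusted p = 0.0168), and the second probe of each gave 0.42 and 0.37. Igf1, the main secreted target, at 0.25 and the feedback inhibitor gene Socs2 at 0.67 did not pass (adjusted p = 0.0713 and 0.217), although 2 of the 5 tested probes of Igf1 passed at 0.61 and 0.43. Once slide entered as a fixed block, 0 of the 18 passed, and Stat5b was lost in 3 of the 6 fits without 1 array.

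Clock genes changed in opposite directions by their role in the loop. All 25 were tested, and 7 were higher, 13 lower and 5 did not pass, a share of 80% with a median of -1.01. In the positive limb, Arntl stood at -3.45, -2.53 and -3.07 on wild type arrays and at 2.55, 2.29 and 1.57 on knockout arrays. The groups lay far apart, and Arntl rose 35.6-fold (5.15 ± 0.38, adjusted p = 3.98e-05). Clock rose by 1.46 ± 0.12, and Npas2, the paralogue of Clock, was at least 1.89-fold higher with 0 wild type arrays above background. Nfil3, a repressor of D-box genes, stood at 2.16, 2.12 and 1.89 against 4.69, 4.92 and 4.96 and rose by 2.80 ± 0.13 (adjusted p = 3.46e-06). Rora, an activator of Arntl and Nfil3, rose by 0.58.

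In the negative limb and among the outputs 13 genes fell. Dbp, an activator of D-box genes, stood at 7.04, 6.91 and 6.82 on wild type arrays and at 0.25, 0.14 and -0.09 on knockout arrays. It fell 113-fold (-6.82 ± 0.26, adjusted p = 6.28e-07), the second probe gave -6.54, and the spread within each group was a small part of the difference. Its relatives Tef and Hlf fell by 2.80 and 1.01. Ciart, a repressor of BMAL1 and CLOCK, stood at -0.03, -0.14 and 0.22 against -6.41, -6.60 and -6.75; no knockout array was well above background and it was at least 23.7-fold lower. Per2 stood at -0.10, -0.89 and -0.44 against -2.09, -2.60 and -3.23 and fell by 2.17, Per1 fell by 1.12 and Per3 was at least 5.63-fold lower. Of the repressors of Arntl, Nr1d1 fell by 1.77 and Nr1d2 fell by 2.004. Cry2 fell by 0.62, whereas Cry1 at 1.01 and Bhlhe40 at -1.07 did not pass (adjusted p = 0.0572 and 0.0520). Among rhythmic outputs, the deubiquitinase gene Usp2 fell by 4.48, the mitotic kinase gene Wee1 by 3.85 and the deadenylase gene Noct by 1.37. The calls for Per1, Cry2 and Noct were lost in 5, 4 and 1 of the 6 fits without 1 array. With slide as a fixed term 4 clock genes were higher and 10 lower, with a median of -1.18, and with a random block 5 and 10. Dbp at -7.79 and Arntl at 5.83 passed with the fixed block.

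**Figure D3:**
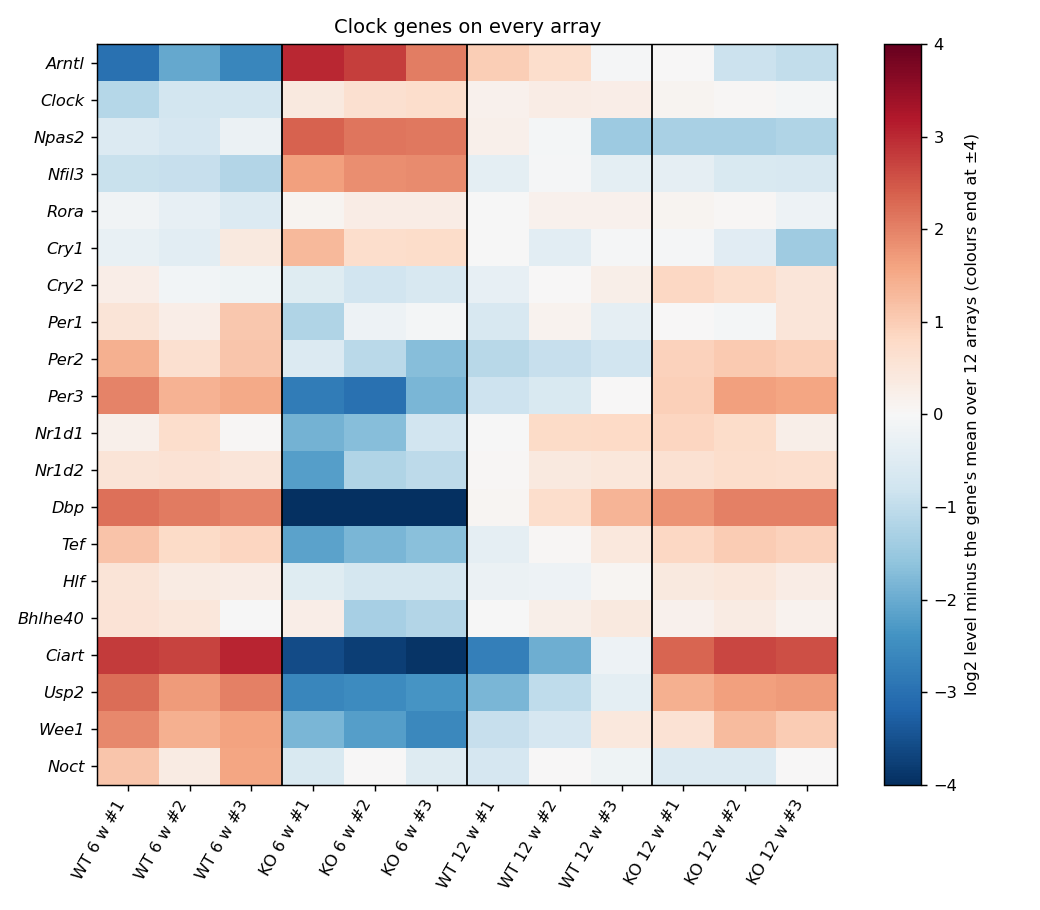
Each row is 1 of 20 clock and output genes and each column 1 of the 12 arrays, coloured by the log2 level minus the mean of the gene over the 12 arrays, with colours ending at ±4. On the 6-week wild type arrays Arntl, Clock and Nfil3 are low and Dbp, Ciart, Usp2 and Wee1 high, and the 6-week knockout arrays show the reverse. The 12-week wild type arrays lie between, and the 12-week knockout arrays lie nearer to the 6-week wild type for Dbp, Ciart and Usp2.

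Known control elements were searched for close to the start of the clock genes. RefSeq promoter sequences (GRCm38.p6, the 250 bases before the annotated start, 27 entries) were at hand for 19 of the 25 genes, and both strands were searched for the E-box CACGTG, the D-box TTATGTAA and the ROR and Nr1d element TAGGTCA. The E-box was found in 6 of the 27 entries, against 6.02% of 32851 promoter entries of all genes. They were those of Ciart, Cry1 and Bhlhe41, both entries of Tef and 1 entry of Per1, whose other entry held no E-box. Of these 5 genes 3 fell, 0 rose, and Cry1 and Bhlhe41 did not pass. Of all 25 clock genes 13 fell and 7 rose, so the share that fell was near that of the list, and 5 genes are too few to tell more. The D-box was found for Per3 (0.819% of all entries) and the ROR element for Nfil3 (2.23%). None of the 3 motifs was found in the entries of Dbp, Arntl and Usp2, which were among the clock genes that moved most. The 3 motifs share no bases in these windows. Ciart, with 3 E-boxes, Per1, with 1, Per3, with 2 D-boxes, and Nfil3 are shown because they fell and rose on opposite limbs of the loop, with the motifs, on either strand, in capitals.
Ciart, chr3:95882229-95882478, minus strand: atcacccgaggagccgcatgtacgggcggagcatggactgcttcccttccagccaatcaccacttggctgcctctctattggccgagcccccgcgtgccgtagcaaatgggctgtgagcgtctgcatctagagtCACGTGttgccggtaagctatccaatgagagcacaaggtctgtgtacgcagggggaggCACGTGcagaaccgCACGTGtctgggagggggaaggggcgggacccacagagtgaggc
Per1, chr11:69098699-69098948, plus strand: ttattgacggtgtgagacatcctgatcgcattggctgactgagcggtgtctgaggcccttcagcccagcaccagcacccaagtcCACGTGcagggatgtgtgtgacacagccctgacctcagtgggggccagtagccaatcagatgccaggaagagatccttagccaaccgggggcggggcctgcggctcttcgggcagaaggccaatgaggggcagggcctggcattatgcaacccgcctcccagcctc
Per3, chr4:151044666-151044915, minus strand: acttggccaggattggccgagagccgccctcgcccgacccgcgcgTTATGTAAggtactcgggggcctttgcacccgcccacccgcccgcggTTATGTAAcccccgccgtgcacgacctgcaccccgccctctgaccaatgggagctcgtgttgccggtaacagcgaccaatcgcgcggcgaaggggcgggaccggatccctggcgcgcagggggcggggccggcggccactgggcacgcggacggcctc
Nfil3, chr13:52981040-52981289, minus strand: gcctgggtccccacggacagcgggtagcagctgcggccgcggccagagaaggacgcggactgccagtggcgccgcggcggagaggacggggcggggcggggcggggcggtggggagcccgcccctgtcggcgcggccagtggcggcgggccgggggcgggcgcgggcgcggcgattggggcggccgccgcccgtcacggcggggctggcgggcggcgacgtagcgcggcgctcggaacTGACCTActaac
In Ciart the E-boxes begin 116, 58 and 44 bases before the start, and in Nfil3 the element begins 12 bases before it, reading TGACCTA on the sense strand. A match of letters is a description and does not show binding.

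At 12 weeks the clock list looked different. Of its 25 genes 10 were higher in the knockout and 0 lower, against 5.64% and 2.56% of all genes at that age, with a median of 0.37. Ciart differed by 4.16 at 12 weeks against a fitted -6.60 at 6 weeks, Usp2 by 2.67 against -4.48, Per3 by 1.87 against a fitted -4.17 and Dbp by 1.23 against -6.82. Arntl differed by -1.16 against 5.15 and did not pass at 12 weeks. The difference between the ages passed for 17 of the 25. Over all genes it passed for 2287 (10.3%), the 12-week difference itself passed for 8.2%, and of the 4663 genes called at 6 weeks, 343 were called in the same direction at 12 weeks, 252 in the opposite one and 4068 not at all. The mean level over the clock list, which blends rises with falls, was 0.44 on replicate 1 of the 12-week wild type. It ran from 0.44 to 0.86 over the 12-week wild type arrays, against 1.11 to 1.25 and 0.13 to 0.16 on the 6-week wild type and knockout arrays. Of the 20 clock genes that passed at 6 weeks, 13 had replicate 1 nearer to the 6-week knockout mean than to the 6-week wild type mean. For the mean of the 12-week wild type arrays of slide 2 this count was 10.

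**Figure D4:**
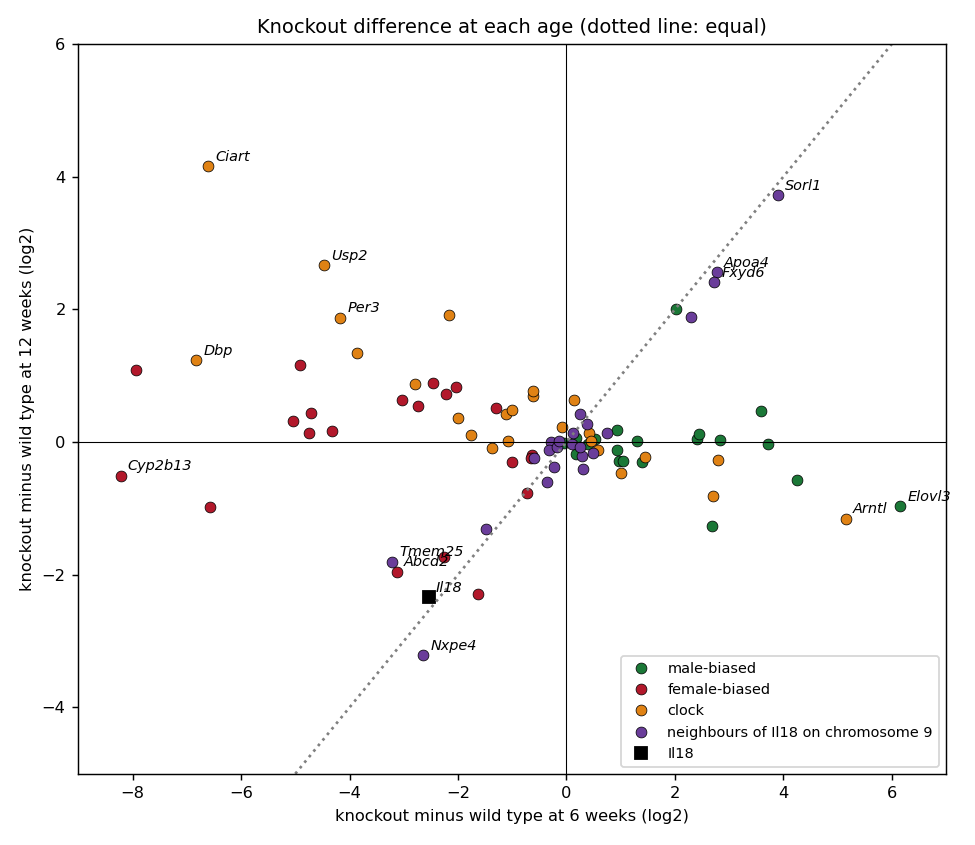
Each point is a gene of 4 lists, with the knockout minus wild type difference (log2) at 6 weeks on the horizontal axis and at 12 weeks on the vertical axis; on the dotted line both are equal. Male-biased and female-biased genes spread along the horizontal axis with 12-week differences mostly near 0, several clock genes lie in the upper left (Ciart at a fitted -6.60 and 4.16), and Il18 and its neighbours Sorl1, Apoa4, Fxyd6 and Nxpe4 lie near the line.

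The metallothioneins fell steeply. Mt1, which buffers zinc and is known to be induced by metals and glucocorticoids, stood at 8.40, 8.52 and 8.14 on wild type arrays and at 4.07, 4.87 and 5.12 on knockout arrays, 12.7-fold lower (-3.66 ± 0.38, adjusted p = 0.000257). Its neighbour Mt2 stood at 7.34, 7.44 and 6.37 against 2.51, 3.03 and 3.88, 15-fold lower (-3.91 ± 0.50, adjusted p = 0.000851). Neither gene overlapped between the groups, and for Mt1 the 12-week arrays lay between, at 6.49, 5.87 and 6.74 in the wild type. Metal-response elements have the core TGCACNC or TGCGCNC, and both promoters hold it, as do 21.4% of all promoter entries. They are shown with the core in capitals.
Mt1, chr8:94178839-94179088, plus strand: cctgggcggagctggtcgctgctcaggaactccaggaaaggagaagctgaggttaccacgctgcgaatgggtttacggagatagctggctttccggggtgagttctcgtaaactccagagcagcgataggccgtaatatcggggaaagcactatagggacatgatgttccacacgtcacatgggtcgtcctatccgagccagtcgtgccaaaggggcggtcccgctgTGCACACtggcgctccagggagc
Mt2, chr8:94172368-94172617, plus strand: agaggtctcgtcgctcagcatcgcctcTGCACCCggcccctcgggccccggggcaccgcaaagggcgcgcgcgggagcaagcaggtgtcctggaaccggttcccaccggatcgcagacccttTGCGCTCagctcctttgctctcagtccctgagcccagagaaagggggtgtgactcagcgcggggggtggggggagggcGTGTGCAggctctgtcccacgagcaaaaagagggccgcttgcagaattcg
Glucocorticoid targets did not move one way. In the list of 14, which holds both metallothioneins, 2 genes were higher and 5 lower, a share of 50% with a median of -0.13. The anti-inflammatory regulator gene Tsc22d3 rose by 0.97 and Tat, a tyrosine aminotransferase, by 0.92, while the oestrogen sulfotransferase gene Sult1e1 fell by 1.63 and Hsd11b1, which regenerates glucocorticoid, and the tryptophan dioxygenase gene Tdo2 fell by 0.42 and 0.42. Fkbp5 at -0.62 did not pass (adjusted p = 0.0576). The calls for Tsc22d3, Sult1e1 and Tdo2 were lost in 3, 4 and 4 of the 6 fits without 1 array. With the slide as a fixed block Mt1 at -3.48 passed and Mt2 at -3.67 did not (adjusted p = 0.0796).

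Genes of drug and xenobiotic metabolism were mostly lower. Of 33 listed, 31 were tested, and 20 were lower, 2 higher and 9 did not pass, a share of 71% with a median of -0.54. Cyp2b10, the marker target of the constitutive androstane receptor, stood at 5.37, 5.64 and 6.24 on wild type arrays and at 0.22, 0.50 and -0.56 on knockout arrays, 51.8-fold lower (-5.70 ± 0.60, adjusted p = 0.000302) and without overlap. The gene of that receptor, Nr1i3, stood at 4.52, 4.32 and 4.56 against 3.21, 3.50 and 3.46 and fell 2.11-fold, whereas Nr1i2, which encodes the pregnane X receptor, at 0.19 did not pass. The aldo-keto reductase gene Akr1b7 fell by 2.26, the drug efflux pump gene Abcb1a by 2.12, and Por, which passes electrons to all microsomal P450 enzymes, by 1.28. Of other P450 genes, Cyp2c39 fell by 1.29, Cyp2c37 by 1.11 and Cyp3a11 by 0.46. The carboxylesterase gene Ces2a rose by 0.47. Under the fixed slide block 6 were lower and 0 higher, with a median of -0.73, and with a random block 16 and 1. The mean over the list on replicate 1 of the 12-week wild type was 4.73, between 5.28 to 5.39 in the 6-week wild type and 4.34 to 4.62 in the 6-week knockout.

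Of 17 bile acid genes, 1 was higher and 5 lower, a share of 35.3% with a median of -0.22. Cyp7a1, the rate-limiting enzyme of bile acid synthesis and a rhythmic gene, stood at 3.82, 3.39 and 4.19 on wild type arrays and at 0.09, 2.35 and 1.43 on knockout arrays. The knockout arrays differed among themselves but all lay below the wild type, and Cyp7a1 fell 5.70-fold (-2.51 ± 0.56, adjusted p = 0.0132); with the slide as a fixed block it was -2.64 and did not pass (adjusted p = 0.231). Nr1h4, which encodes the bile acid receptor FXR, fell by 0.62 and the reductase gene Akr1d1 by 0.76, while Fgfr4, the receptor through which FGF19 family hormones repress Cyp7a1, rose by 0.53. Cyp8b1 at 0.40 and the uptake transporter gene Slc10a1 at -0.01 did not pass.

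Fatty acid genes divided by pathway. Of 31 genes of fatty acid oxidation and targets of PPAR-alpha, 1 was higher and 9 lower, a share of 32.3% with a median of -0.30. Cyp4a14, a fatty acid omega-hydroxylase, stood at 8.07, 8.31 and 8.76 against 5.06, 4.57 and 3.95 and fell 14.5-fold (-3.86 ± 0.50, adjusted p = 0.000904). Cyp4a10 fell by 2.23, the fatty acid transporter gene Cd36 by 1.83, the thioesterase gene Acot4 by 1.31 and Ppara itself by 0.61. Pdk4, the kinase that blocks pyruvate dehydrogenase, went the other way, from -2.23, -1.30 and -1.17 to 1.12, 0.46 and 0.80, and rose by 2.36 ± 0.27. Cpt1a, the gate of mitochondrial fatty acid entry, at -0.40 did not pass. Of 22 lipogenic genes 6 were higher and 1 lower, a share of 31.8% with a median of 0.30. Acacb stood at 3.26, 2.50 and 2.27 against 4.67, 4.39 and 3.85 and rose by 1.63 ± 0.25, the desaturase gene Scd1 stood at 7.52, 7.11 and 6.96 against 8.45, 8.36 and 8.02 and rose by 1.08 ± 0.16, and Acly, Elovl5 and the glucose sensor gene Mlxipl rose by 0.95, 0.81 and 0.41. Fasn at 0.76 did not pass and overlapped between the groups. Of 24 cholesterol genes 1 was higher and 3 lower, near the background share, with the mevalonate pathway gene Pmvk at 0.81. The calls for Acly, Mlxipl and Pmvk were lost in 4, 4 and 4 of the 6 fits without 1 array. In the fit with a fixed slide block 0 lipogenic and 0 cholesterol genes passed and 3 oxidation genes were lower.

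Among 19 genes of glucose output and insulin signalling, 7 were higher and 5 lower, a share of 63.2% with a median of 0.23. G6pc, the catalytic subunit of glucose-6-phosphatase, stood at 5.68, 6.17 and 6.45 on wild type arrays and at 7.99, 8.13 and 7.84 on knockout arrays and rose 3.70-fold (1.89 ± 0.29, adjusted p = 0.00222). Slc2a2, the glucose transporter gene of the hepatocyte, stood at 6.13, 6.08 and 5.93 against 5.08, 4.996 and 4.94 and fell 2.06-fold. Gys2, liver glycogen synthase, stood at 6.99, 6.996 and 7.04 against 5.98, 6.01 and 6.10 and fell 1.97-fold, and the glycogen phosphorylase gene Pygl rose by 0.43. All 3 of these transport and storage genes had groups that did not overlap, as had 14 of the 19 genes of the list and 47.9% of all genes. The insulin receptor gene Insr fell by 0.52 by the probe used, while its other 2 tested probes at -0.05 and -0.11 did not pass, and the adaptor gene Irs1 rose by 0.66. Pck1 at 0.27 and Igfbp1 at 0.997 did not pass. At 12 weeks G6pc differed by -1.76 and Igfbp1 by -2.66, both passing. Once slide entered as a fixed block, 0 genes of this list were higher and 2 lower, Gys2 at -1.47 and Slc2a2 at -1.16, and G6pc at 2.26 had an adjusted p of 0.0602.

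More genes of the unfolded protein response rose than fell. Of 27 genes of the unfolded protein and integrated stress responses, 16 were higher, 1 lower and 10 did not pass, a share of 63% with a median of 0.58. Sdf2l1 stood at 2.49, 2.35 and 2.44 on wild type arrays and at 4.62, 3.89 and 3.98 on knockout arrays and rose 3.32-fold. Dnajb11, a co-chaperone, passed in opposite directions by its probes, at 0.93 by the one used and at -2.56 by the other. The disulfide isomerase genes Pdia6, from 6.99, 7.08 and 6.97 to 8.03, 7.81 and 7.92, and Pdia3 rose by 0.91 ± 0.10 and 0.83 ± 0.08. Hyou1 rose by 1.30 and Hspa5, the master chaperone BiP, by 0.97. In the arm of the integrated stress response Atf5 rose by 0.83, Atf4 at 0.26 did not pass, and Trib3, a target of ATF4 and CHOP, fell by 1.61. Of 18 heat shock genes of the cytosol and mitochondria 5 were higher and 1 lower, a share of 33.3% against 21.1% of all genes. Among those higher were Hspb1 at 0.94 and Hsp90aa1 at 0.91. The calls for Hspa5 and Trib3 were lost in 1 and 2 of the 6 fits without 1 array. With slide as a fixed term 3 genes of the unfolded protein list were higher, with a median of 0.38, and 6 with a random block, while 0 heat shock genes passed in either; Hspa5 went to 0.20 (adjusted p = 0.775).

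Cdkn1a, the gene of the cyclin-dependent kinase inhibitor p21, was among the largest rises. It stood at -3.91, -3.82 and -3.48 on wild type arrays, 2 of them well above background, and at 1.58, 1.27 and 1.96 on knockout arrays, 40.5-fold higher (5.34 ± 0.28, adjusted p = 6.58e-06). No other group of arrays reached these knockout levels, and with the slide as a fixed block the rise was 5.26 (adjusted p = 0.00290). Its other 2 probes, too dim to be tested, gave differences of 2.03 and 0.42. Of 19 tested targets of p53, 4 were higher and 2 lower, a share of 31.6% with a median of 0.07. Ddit4 rose by 1.46 and Trp53inp1 by 1.16, while the direct target Mdm2 at 0.21 and a second probe of Trp53inp1 at 0.43 did not pass. Of 22 tested cell cycle genes 6 were higher and 2 lower, a share of 36.4% with a median of 0.37. The mitotic genes Ccna2, Mki67 and Aurka rose by 1.56, 1.32 and 1.02. The G1 cyclin gene Ccne1 stood at 0.20, 0.38 and 0.63 against -0.77, -1.25 and -1.05 and fell by 1.43, and Ccnd1 fell by 1.05. With the slide as a fixed block Ccna2, Mki67 and Aurka were 0.56, 0.38 and 0.33 and did not pass, and the calls for Ccnd1 and Mki67 were lost in 5 and 3 of the 6 fits without 1 array.

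Of 11 tubulin genes tested, 6 were higher, 0 lower and 5 did not pass, a share of 54.5% with a median of 0.56. Tubb2a, a beta-tubulin, stood at 3.14, 3.33 and 3.27 on wild type arrays and at 7.39, 6.83 and 6.61 on knockout arrays, 13-fold higher (3.70 ± 0.30, adjusted p = 7.65e-05), and the 12-week arrays lay between. The alpha-tubulin genes Tuba1c and Tuba4a rose by 1.07 and 0.96. Under the fixed slide block 1 tubulin was higher and 1 lower, with a random block 2 and 1, and Tubb2a passed at 3.63.

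Shares of interferon and acute phase genes lay on both sides of the background. Of 30 targets of interferon-gamma, 0 were higher and 3 lower (Gbp7 at -0.47, Psmb10 at -0.46 and Iigp1 at -0.39), a share of 10% with a median of -0.14, under the background of 21.1%. Of 17 type I interferon genes 4 were higher and 1 lower, a share of 29.4%, among them Rsad2 at 0.85, Cmpk2 at 0.83, Oasl1 at 0.73 and Usp18 at -0.70. Of 25 acute phase genes 1 was higher, the fibrinogen gene Fga at 0.52, and 3 were lower, Lcn2 at -1.26, Il1rn at -0.86 and Serpina3n at -0.64, a share of 16%. Of 14 immediate early genes only Ier3 passed, at -1.36, a share of 7.14%. The calls for Gbp7, Psmb10, Iigp1, Rsad2, Usp18 and Oasl1 were lost in 5, 4, 4, 4, 3 and 1 of the 6 fits without 1 array, and with the slide as a fixed block 0 genes of these 4 lists passed.

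Markers of liver cell types gave the following, to be read against the 21.1% of all genes that passed. The share passing was 10% for hepatocytes, 25% for NK and T cells, 18.2% for endothelium and 9.09% for stellate cells. It was 9.09% for pericentral and 25% for periportal genes. Lists of 5 or 6 tested genes gave 66.7% for neutrophils and monocytes, 80% for erythroid cells and 40% for cholangiocytes. Of 10 hepatocyte markers 0 were higher and 1 lower, with a mean level of 9.16 to 9.20 on the wild type arrays and 9.04 to 9.22 on the knockout arrays. Of 15 markers of Kupffer cells and macrophages 0 passed, Clec4f, which defines Kupffer cells, being at 0.12, and of 7 markers of B and plasma cells 0 passed. Of 12 tested markers of NK and T cells, the cells that answer interleukin-18, 2 were higher and 1 lower: Gzmb at 0.58, Cd8b1, at least 1.42-fold higher with 0 wild type arrays above background, and Cd3g at -0.66. The NK cell gene Ncr1 was too dim to test. Among 6 tested neutrophil and monocyte markers S100a9 rose from -0.28, -0.06 and -0.21 to 0.70, 0.62 and 0.83 (0.90 ± 0.09, adjusted p = 0.000177), S100a8 and Camp rose by 0.74 and 0.57 (a second probe of Camp at 0.24 did not pass), and Elane fell by 0.63. Of 5 tested erythroid markers Alas2 rose from 4.26, 3.94 and 4.09 to 5.40, 5.62 and 5.66 (1.46 ± 0.13, adjusted p = 0.000132) and Hba-a1 by 0.998, while Klf1 fell by 0.91. Sox9, a marker of cholangiocytes, stood at -2.98, -2.87 and -3.33 against -1.06, -1.82 and -0.87 and rose 3.51-fold, but Cftr, from the same list, fell by 0.99. Of 11 endothelial markers 1 was higher and 1 lower, Kdr at -0.54 with a second probe at 0.03, of 11 stellate cell markers 1 was lower, and of 4 pancreatic and 3 adipocyte markers 0 passed. Of 11 genes of pericentral hepatocytes 1 was lower, and of 12 of periportal hepatocytes 1 was higher and 2 lower. In the fit with a fixed slide block 2 neutrophil markers and 1 erythroid marker were higher and 1 cholangiocyte marker lower, and 0 of the other cell type markers passed. The part of cell makeup in the other lists was not tested. Of these calls, those for Gzmb, Cd3g, Kdr, Hba-a1, Klf1, Camp and Cd8b1 were lost in 6, 5, 5, 4, 4, 2 and 2 of the 6 fits without 1 array.

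**Figure D5:**
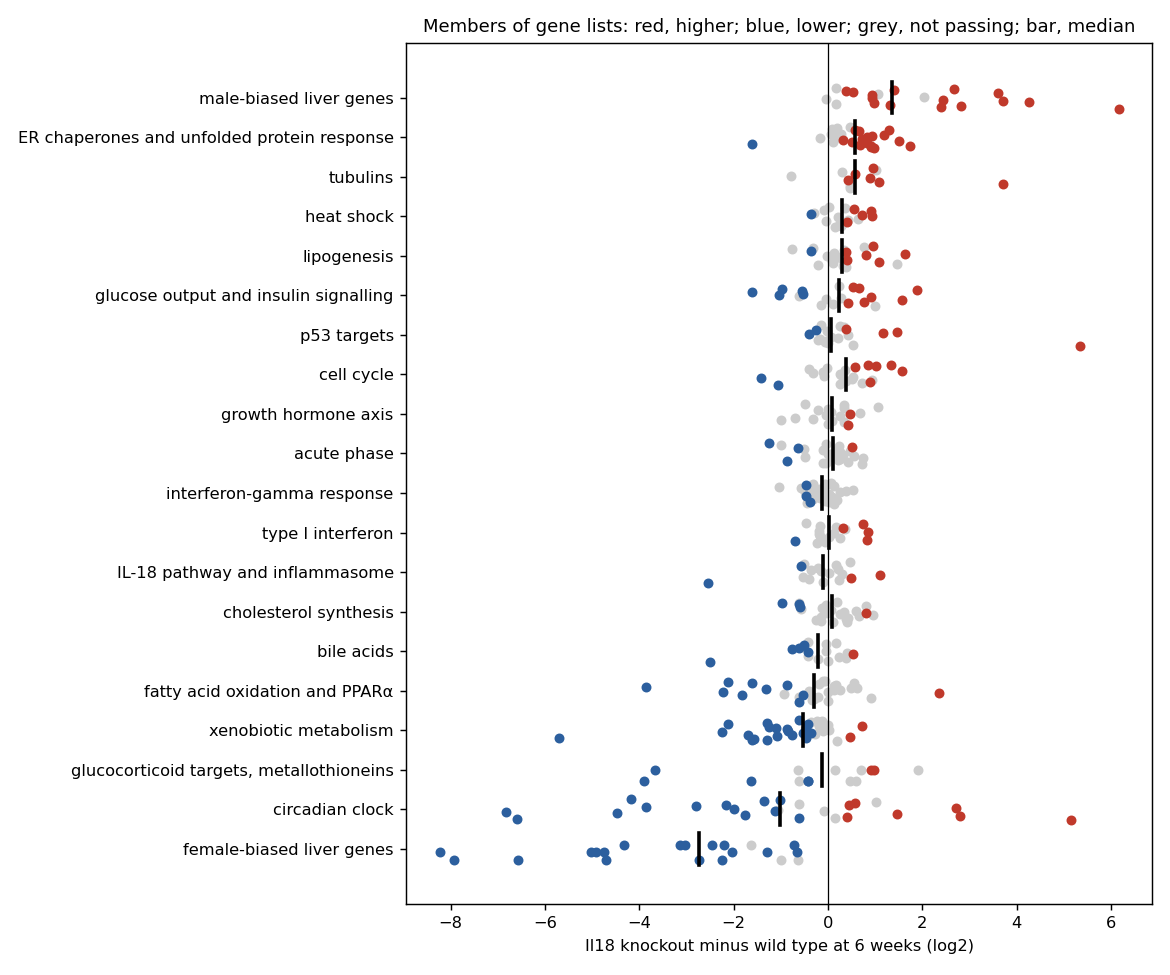
Knockout minus wild type difference at 6 weeks (log2) of every tested gene in 20 lists, with genes that passed and were higher in red, lower in blue, others in grey, and a bar at the median of the list. The male-biased list has a median of 1.35 and the female-biased list of -2.73, with the clock list spread from -6.82 to 5.15 and the interferon-gamma, growth hormone and acute phase lists close to 0.

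Genes listed as neighbours of Il18 on chromosome 9 moved in both directions. Of 23 tested neighbours 5 were higher and 6 lower, a share of 47.8% with a median of 0.13. Members were chosen with earlier results known and not by a fixed distance, so this share is no test of the region. Probes began at 41776572 for Sorl1, 45204134 for Fxyd6, 46049661 for Apoa4 and 50341275 for Bco2, against 50389761 for Il18 (mm9). Sorl1, a sorting receptor, stood at -3.06, -2.98 and -3.62 on wild type arrays and at 0.50, 0.91 and 0.62 on knockout arrays, and Nxpe4 stood at -4.08, -4.27 and -3.95 against -6.60, -6.75 and -6.87, with 0 knockout arrays above background. Both sets lay apart, and Nxpe4 was at least 1.37-fold lower. Sorl1 rose 14.9-fold by this probe and its second probe passed at 1.25. The apolipoprotein gene Apoa4 rose by 2.77, the ion transport regulator gene Fxyd6 by 2.72 and Tex12 by 2.29, while the carotenoid dioxygenase gene Bco2 fell by 1.49 and Tmem25 by 3.21. At 12 weeks the differences were 3.72 for Sorl1, 2.56 for Apoa4, 2.41 for Fxyd6, 1.88 for Tex12, -1.31 for Bco2 and -1.80 for Tmem25, all passing. Of the 23 genes 5 were also higher and 6 lower at 12 weeks. Once slide entered as a fixed block, 4 were higher and 3 lower at 6 weeks.

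Some of the largest changes fell outside the lists. Grk5, a receptor kinase gene, stood at -1.98, -1.94 and -2.24 on wild type arrays and 1.65, 1.51 and 1.49 on knockout arrays, and rose 12.2-fold (3.60 ± 0.11, adjusted p = 1.32e-07). The adipokine gene Serpina12 was at least 11.3-fold higher, the ferritin receptor gene Scara5 at least 12.7-fold by 1 probe while its other probe gave 0.18 and did not pass, and Akr1c21, Lad1, Ankk1, Capn8 and the endocytic receptor gene Lrp2 at least 3.23, 4.45, 3.38, 2.96 and 2.73-fold, each with 0 wild type arrays above background. Ankk1 was high on 1 knockout array, at 0.10, -3.95 and -3.71 over the 3, and its call was lost in 2 of the 6 fits without 1 array. Its probe lies on chromosome 9 at 49223359 (mm9), although the neighbour list above did not hold it. Fam222a, the lysyl oxidase gene Loxl4, the calcium-dependent kinase gene Camk2b and the sulfotransferase gene Sult5a1 rose by 3.57, 3.48, 3.47 and 3.35. Among falls, Rgs16, which brakes G protein signalling, stood at 4.96, 5.52 and 4.24 against -0.15, 1.23 and 2.10 and fell 14.4-fold (-3.85 ± 0.58, adjusted p = 0.00217). Tafa2 and the sulfotransferase gene Sult2a6 were at least 10.9 and 4.77-fold lower, and the cytochrome P450 gene Cyp2a22 fell by 3.77. With slide as a fixed term Grk5 at 3.67 passed (adjusted p = 0.000152), and Rgs16 at -4.66, Camk2b at 3.47 and Sult2a6 at a fitted -4.41 did not (adjusted p = 0.0572, 0.0761 and 0.178).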

How the data were processed

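Gene expression was measured on 12 1-colour Agilent arrays of whole mouse liver, 3 for each genotype and age. Per the file headers, the authors extracted and background-subtracted the spot intensities with Agilent Feature Extraction 10.7.3.1, giving processed intensities on a linear scale, and deposited this scanner output. The authors also deposited a table of the same processed intensities on the linear scale, rounded, which served as an alternative source. Here log2 of the processed intensity was taken relative to the 75th percentile of each array. Control spots and outlier spots were dropped, and repeat spots averaged. Testing required a probe to exceed background clearly on each of the 3 arrays of some group, and a gene was read by its probe with the highest mean over 12 arrays; 5435 genes had several such probes. Where a gene was not above background on any array of the dimmer group, only a lower bound of the fold is given: the mean of the brighter group against, per array, the higher of the dim probe and the dimmest signal among probes well above background. limma 3.58.1 (R 4.3.3) was fitted over all 12 arrays with Benjamini-Hochberg adjustment. The p-values measure the spread between these arrays, which were labelled as biological replicates, and the number of arrays limits the precision. The genes named were Il18, the 20 largest rises and 20 largest falls that passed and did not overlap (leaving out names that are only an accession, clone or predicted gene), and members of the lists by role; some of these genes are not reported here. Members and lists were chosen with earlier results of these data known. Probe positions are on mm9, and promoters are RefSeq entries on GRCm38.p6. The procedure was tested on simulated data. The alternatives were slide and replicate blocks, other background corrections, scalings, filters and probe choices, only the 6 arrays of 6 weeks, and leaving out single arrays.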

Additional observations from a re-analysis of the deposited data

Results flagged for a closer look

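Each result here was marked because the knockout difference at 12 weeks differed from that at 6 weeks by limma's interaction test (adjusted p under 0.05 over all genes). Values are the 12-week difference minus the 6-week difference on the log2 scale, fitted values where a group was not above background. It passed for 2287 genes in all, for 1532 with the slide as a fixed block and for 1961 with a random block. Since genotype and slide coincide at 6 weeks, each value also holds part of any difference between the slides. Groups of 3 arrays are too small for a test of single outlying arrays.

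Among male-biased genes the value was -7.12 for Elovl3, -3.74 for C6, -3.13 for Cyp7b1, -2.36 for Cyp4a12a, -2.8 for Hsd3b5, -1.3 for Mup21, -1.05 for Slco1a1, -1.69 for Gstp1, -3.94 for Cspg5, -0.76 for Ugt2b1 and -4.83 for Nat8f5. In each of these the 6-week rise was larger than the 12-week difference. Among female-biased genes it was 5.59 for Cyp2b9, 7.71 for Cyp2b13, 2.86 for Cyp2a4, 5.36 for Hao2, 3.67 for Sult3a1, 4.88 for Acot3, 4.49 for Slc22a26, 5.15 for Slc22a27, 6.08 for Slc22a29, 3.28 for Tox and 1.82 for Trim24. These had fallen at 6 weeks. Stat5b had a value of -0.62.

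Among clock genes it was -6.31 for Arntl, -1.68 for Clock, -3.52 for Npas2, -3.07 for Nfil3 and -0.7 for Rora for the limb that rose at 6 weeks, and 1.3 for Cry2, 4.08 for Per2, 6.04 for Per3, 1.87 for Nr1d1, 2.37 for Nr1d2, 8.06 for Dbp, 3.67 for Tef, 1.49 for Hlf, 10.76 for Ciart, 7.14 for Usp2 and 5.2 for Wee1 for genes that fell. Ciart, Usp2, Per2, Per3, Dbp, Wee1, Tef, Cry2 and Hlf were lower at 6 weeks and higher at 12 weeks on a passing test at each age.

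Metallothionein and glucocorticoid genes gave 3.27 for Mt1, 3.54 for Mt2, 1.37 for Fkbp5, 3.47 for Sult1e1, 0.56 for Hsd11b1 and 0.57 for Tdo2. Xenobiotic and bile acid genes gave 4.08 for Cyp2b10, 0.82 for Cyp2c37, 0.85 for Cyp2c39, 1.84 for Por, 1.72 for Akr1b7, 1.86 for Abcb1a, -0.65 for Ces2a, 3.33 for Cyp7a1, 0.82 for Nr1h4, 1.06 for Akr1d1 and -0.6 for Fgfr4. Lipid genes gave 0.82 for Ppara, 1.94 for Cyp4a10, 2.74 for Cyp4a14, 1.5 for Acot4, -3.63 for Pdk4, 2.33 for Cd36 and -0.71 for Elovl5. Genes of glucose metabolism gave -3.65 for G6pc, -3.65 for Igfbp1, -1.2 for Irs1, 1.31 for Gys2 and 1.44 for Slc2a2, and G6pc was higher at 6 and lower at 12 weeks.

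Stress and growth genes gave -0.55 for Pdia6, -1.12 for Atf5, -0.94 for Hspb1, -5.31 for Cdkn1a, -1.9 for Trp53inp1, 1.15 for Ccne1, -2.21 for Ccna2, -2.06 for Mki67, -1.46 for Aurka, -4.8 for Tubb2a and -1.19 for Tuba4a. Immune and marker genes gave -0.36 for Irak1, 1.19 for Il12rb1, 0.97 for Serpina3n, -0.58 for Fga, -1.1 for Cmpk2, -0.69 for S100a8, -0.97 for S100a9, -0.78 for Camp, -1.13 for Alas2, 2.17 for Klf1, -1.11 for Cd3g and -2.1 for Sox9. Of the neighbours of Il18, Tmem25 had 1.41. The other large changes gave -3.81 for Serpina12, -4.13 for Scara5, -4.27 for Grk5, -3.59 for Akr1c21, -3.51 for Fam222a, -4.44 for Loxl4, -2.41 for Camk2b, -2.65 for Capn8, -2.28 for Sult5a1, -1.96 for Lad1, -2.87 for Lrp2, 3.31 for Tafa2, 4.87 for Sult2a6, 4.47 for Rgs16 and 3.4 for Cyp2a22.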

How the results depend on the processing

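The slide had the largest effect of the alternatives tried. With the slide as a fixed block 588 genes passed, 311 higher and 277 lower, of which 439 were among the 4663, and as a random block, with a correlation of 0.325 between arrays of a slide, 1228 passed, 660 higher and 568 lower. Since the slides divide the 6-week groups entirely, that block depends on the 12-week wild type array of slide 1. Without a filter on dim probes, which raised the genes tested to 36091, 1332 genes were lower and the difference between the ages passed for 1335. Leaving out 1 array at a time gave 2549 to 3084 genes in all, 1427 to 1785 higher and 1122 to 1448 lower, and fewer arrays were tested in each. The difference between the ages passed for 1561 to 3318 genes on leaving out 1 array, the highest without replicate 1 of the 12-week wild type. Il18 passed under each alternative, at -2.61 to -2.28. Of the 178 genes followed through the alternatives, no gene that passed changed direction. Dnajb11, whose probes passed in opposite directions, was not among them.

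The replicate numbers only name the arrays: deviations of same-numbered arrays correlated at 0.06, -0.04 and 0.02, against -0.07 to 0.06 for other pairs. With the replicate number as a block 4060 genes passed, 2213 higher and 1847 lower, Il18 was -2.54, and the difference between the ages passed for 2015 genes. Over the remaining alternatives and the slide blocks, male-biased genes higher in the knockout numbered 11 to 16, female-biased genes lower 8 to 18, and clock genes 4 to 8 higher and 10 to 14 lower. Dim probes limit the folds of genes not above background in 1 group.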
